A study of Mus musculus with 18 samples.

Results

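The genes described here are 10 genes of the antioxidant defence, chosen by symbol from the 19197 genes measured in each library: Hmox1, Txnrd1, Srxn1, Gclm, Gclc, Osgin1 and Nqo1, the metallothionein genes Mt1 and Mt2, and Sod2. The inbred mouse strain C57BL/6 was used throughout, and apical heart RNA of 18 libraries was sequenced 1 day after surgery. In 6 sham libraries the mice had a sham operation and vehicle, in 6 they had a myocardial infarction (MI) and vehicle, and in 6 they had an MI and DCA at 10 mg/kg per day. The labels do not spell DCA out; the series title names it together with TGR5, a bile acid receptor. The labels name no genetic change in any group and give no age, sex or vehicle composition. Whether every library is from a different mouse is not said, and the p-values below cover the spread among libraries, which may be technical. The groups allow 3 comparisons: MI vehicle with sham, MI DCA with MI vehicle, and MI DCA with sham.

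NRF2, encoded by Nfe2l2, is a transcription factor held low by KEAP1, which marks it for degradation. Oxidants and electrophiles modify KEAP1, and NRF2 then pairs with a small MAF protein on antioxidant response elements (AREs) near genes for glutathione synthesis, thioredoxin recycling and quinone and heme breakdown. BACH1 competes for the same elements and is released by heme. Metallothioneins are small cysteine-rich proteins that bind zinc and copper, and the factor MTF1 drives their genes through metal response elements (MREs). Superoxide dismutase 2, the product of Sod2, converts superoxide in the mitochondrial matrix, and heart muscle is rich in mitochondria.

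The promoter windows of RefSeq (build GRCm38.p6, 250 bases before a transcript start and 50 after it) covered 8 of the 10 genes, in 10 windows. Hmox1 and Gclc were not matched. Both strands of the 250 upstream bases were searched for the ARE core, spelled TGACNNNGC or TGAGNNNGC, and for the MRE core, spelled TGCACNC or TGCGCNC. Of all 32851 promoter windows, 23.0% held an ARE spelling and 21.4% an MRE spelling in these bases. An ARE spelling was present for 5 of the 8 genes (Mt2, Srxn1, Gclm, Osgin1 and Txnrd1) and an MRE spelling for 4 (Mt2, Mt1, Srxn1 and Gclm). Counted by window, as for the shares above, these were 5 and 4 of the 10 windows. Each match is a run of letters and not a measured binding site, and no match says only that these letters are not in the window.

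The upstream bases of Mt2 (chr8:94172368-94172617, plus strand) and Srxn1 (chr2:152105274-152105515, plus strand) are shown. Both genes were higher in MI vehicle hearts and hold matches of both kinds. Gclm shares these traits, and a shorter stretch of it is shown further below. Capitals mark ARE and MRE matches on either strand. In Mt2 the 4 capital runs are, in order, 2 MRE matches, the ARE match TGACTCAGC that starts at position -79 from the transcript start, and another MRE match. In Srxn1 they are 2 ARE matches, of which TGAGTCAGC starts at -45, and then 1 MRE match.
Mt2: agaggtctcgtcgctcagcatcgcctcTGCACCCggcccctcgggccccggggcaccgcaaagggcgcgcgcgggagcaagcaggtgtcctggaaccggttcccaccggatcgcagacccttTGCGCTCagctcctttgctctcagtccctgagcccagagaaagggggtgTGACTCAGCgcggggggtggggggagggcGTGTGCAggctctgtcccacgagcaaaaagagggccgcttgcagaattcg
Srxn1: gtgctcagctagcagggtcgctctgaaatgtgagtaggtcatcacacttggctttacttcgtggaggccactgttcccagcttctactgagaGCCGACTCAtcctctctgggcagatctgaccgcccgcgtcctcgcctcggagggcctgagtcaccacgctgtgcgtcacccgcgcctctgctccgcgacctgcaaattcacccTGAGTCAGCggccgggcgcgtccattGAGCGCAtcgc

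For 4 other genes only 30 bases around a match are shown, with the match in capitals. They are the MRE match of Mt1 at -23 (chr8:94179054-94179083), the ARE matches of Gclm at -134 (chr3:122245412-122245441) and of Osgin1 at -99 (chr8:119437037-119437066), and the ARE match in the second of the 3 Txnrd1 windows, at -92 from that start (chr10:82859103-82859132). All 4 genes lie on the plus strand. The matches shown for Mt1, Osgin1 and Txnrd1 lie within the annotated span of the gene, past the start of another annotated transcript.
Mt1: gcggtcccgctgTGCACACtggcgctccag
Gclm: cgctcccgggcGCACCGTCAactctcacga
Osgin1: caggggcccctGCTGACTCAcgcttatgaa
Txnrd1: actggatttttGCTTTGTCAttctgacacg

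The Gclm match shares bases with an MRE match that starts at -138. The ARE matches of Mt2, of Osgin1 and of Srxn1 at -45 also contain TGACTCA or TGAGTCA, the letters of an AP-1 site. The longer run TGACTCAGC or TGAGTCAGC stood in 0.706% of all windows. No ARE or MRE match was found in the upstream bases of Nqo1 or Sod2. The upstream bases of Sod2 all lie past the start of another annotated transcript.

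Expression values are FPKM, read numbers scaled to transcript length and to the mapped reads of the library, as the authors deposited them. Depth was estimated from the spacing of low values at 9700000 to 13900000 mapped reads per library (9700000 to 10800000 in sham, 11200000 to 13900000 in MI vehicle, 10200000 to 13000000 in MI DCA), and 15730 to 16229 genes were above 0. The infarcted libraries differed widely in their distance from the sham mean, measured as a root mean square log2 difference over 12229 genes. MI vehicle 4 lay at 0.32 and MI DCA 1, 3 and 5 at 0.29, 0.27 and 0.34, beside 0.20 to 0.27 for sham libraries set against the other sham libraries. The other 8 infarcted libraries lay at 0.55 to 0.86. Cardiomyocyte markers, summed over 10 genes, were abundant throughout and ranged from 39034 to 43401 FPKM in sham, 17272 to 37536 in MI vehicle and 16889 to 41597 in MI DCA. Infiltrating monocyte and macrophage markers (10 genes) ranged from 251 to 423 FPKM in sham, 496 to 1157 in MI vehicle and 294 to 848 in MI DCA. Neutrophil markers (9 genes) ranged from 11.1 to 41.5 FPKM, 61.4 to 400.0 and 44.6 to 194 in the same order. No marker of these 3 lists was at 0 in every library of a group, although Ly6g was at 0 in 5 of 6 sham libraries. In whole tissue, fewer cells of a type and less RNA per cell cannot be told apart, and the part of cell makeup in the results below was not tested.

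In sham hearts the metallothioneins stood highest of the 10 genes, with Mt1 at 715 ± 282 FPKM and Mt2 at 286 ± 148 (SD, n = 6 here and throughout). Sod2 followed at 178 ± 6.35 FPKM, then Nqo1 at 38.3 ± 4.79, Hmox1 at 25.8 ± 7.43, Txnrd1 at 18.04 ± 2.33, Gclm at 13.1 ± 2.04, Srxn1 at 11.9 ± 1.67, Gclc at 6.76 ± 0.761 and Osgin1 at 3.18 ± 1.04. The ranges of neighbours in this order overlapped for Mt1 and Mt2, Mt2 and Sod2, Nqo1 and Hmox1, Hmox1 and Txnrd1, and Gclm and Srxn1. Sod2 had the smallest coefficient of variation of the 10 genes, 3.56%, and Mt2 the largest, 51.6%.

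Infarction with vehicle was accompanied by higher levels of 7 of the 10 genes and lower levels of 2 relative to sham. Hmox1 and Mt2 rose most, by 1.84 and 1.32 on the log2 scale, Txnrd1 and Srxn1 followed, and Gclm, Gclc and Osgin1 rose by 0.37 to 0.45. Sod2 and Nqo1 fell, by 0.76 and 0.67 on the log2 scale, and Mt1 was not called. A gene was called at an adjusted p under 0.05 in limma on log2(FPKM + 1), over the 11969 genes with at least 1 FPKM in at least 6 of the 12 libraries; all 10 genes passed this filter in every comparison. At the same rule 58.4% of all genes tested were called, 38.3% higher and 20.1% lower, so calls were common in this comparison. The median log2 fold change was 0.42 over the 10 genes and 0.12 over all genes. Median-ratio scaling moved the overall median to 0.00 and the split of all calls from 4583 higher and 2408 lower to 3379 and 3430, and quantile normalization moved the split to 3195 and 3736. Relative to the overall median of 0.12, the log2 changes ran from 0.25 (Gclc) to 1.72 (Hmox1) among the 7 genes that rose and were -0.79 for Nqo1 and -0.87 for Sod2. Under both scalings the 10 genes kept their direction in this comparison, but the 7 called higher became 5 with median-ratio scaling and 4 with quantile normalization; 2 were called lower under both.

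**Figure D1:**
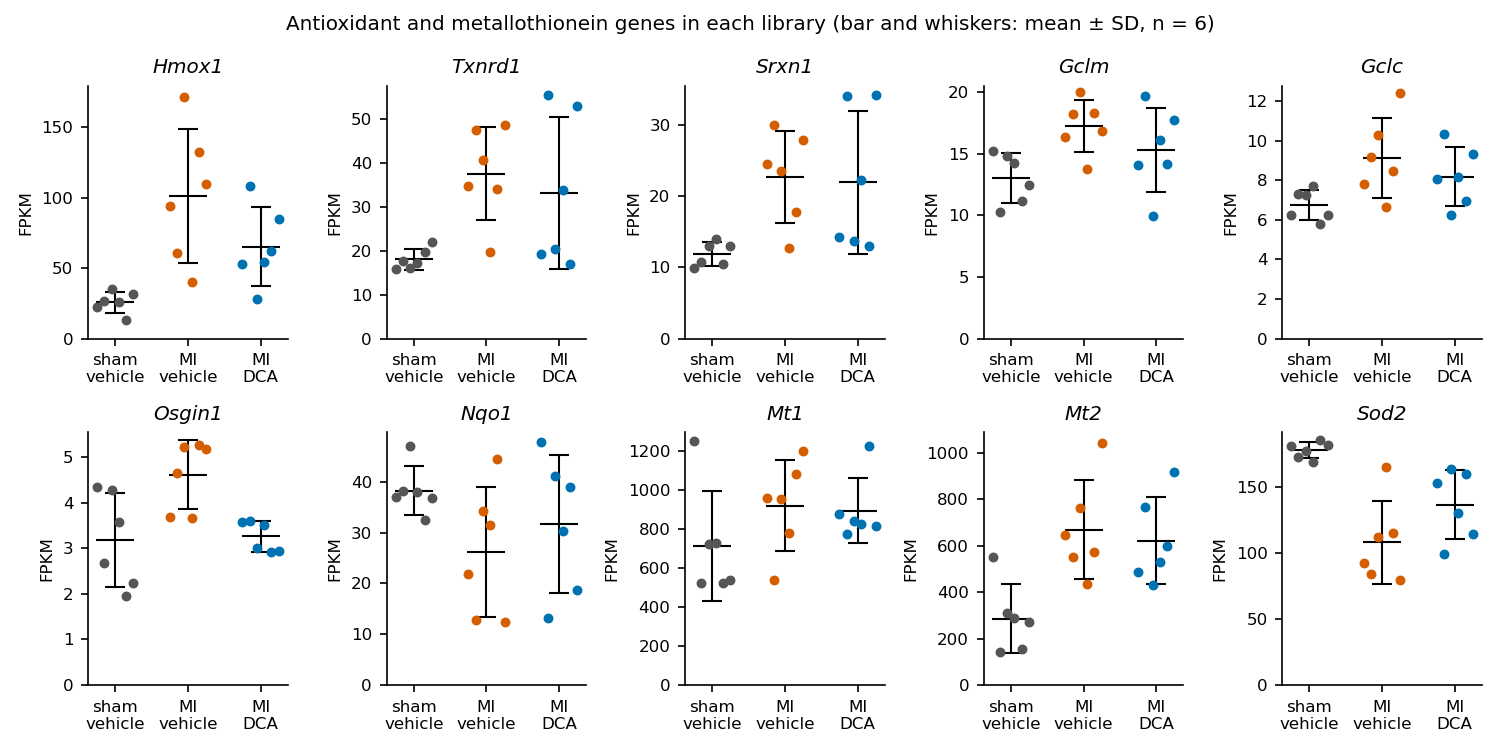
FPKM of each of the 10 genes in each of 18 libraries, 1 panel a gene with its own linear axis from 0; points are libraries and the bar with whiskers is the mean ± SD of 6. Hmox1 and Sod2 separate MI vehicle (orange) from sham (grey) with no overlap, and the MI DCA libraries (blue) of Osgin1 all lie below those of MI vehicle.

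Hmox1 (gene ID 15368, chromosome 8, 75093618 to 75100593) encodes heme oxygenase 1, which breaks heme down to biliverdin, iron and carbon monoxide. It ranged from 13.5 to 34.9 FPKM (median 26.1) in sham and from 39.9 to 171 FPKM (median 102) in MI vehicle. The groups did not overlap, a pattern that 16.1% of all genes tested showed in this direction and 21.8% in either; of the 10 genes, Hmox1 and Sod2 showed it. The mean of 101 ± 47.8 FPKM was 3.93 times that of sham (log2 fold change 1.84, SE 0.31, adjusted p = 0.000477 by limma). MI vehicle 3 and 5 stood highest, at 171 and 133 FPKM, and MI vehicle 4 lowest.

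Txnrd1 (gene ID 50493, chromosome 10, 82833951 to 82897724) encodes cytosolic thioredoxin reductase, and Srxn1 (gene ID 76650, chromosome 2, 152105524 to 152111376) encodes sulfiredoxin, which repairs over-oxidised peroxiredoxins. Txnrd1 ranged from 15.8 to 21.9 FPKM (median 17.4) in sham and from 19.7 to 48.6 FPKM (median 37.7) in MI vehicle, with a mean of 37.6 ± 10.7 FPKM, 2.08 times that of sham (log2 0.97, SE 0.18, adjusted p = 0.000732 by limma). Srxn1 ranged from 9.85 to 13.96 FPKM (median 11.9) in sham and from 12.7 to 29.9 FPKM (median 23.9) in MI vehicle, with a mean of 22.7 ± 6.42 FPKM (log2 0.84, SE 0.17, adjusted p = 0.00143 by limma). For both genes 5 of 6 MI vehicle libraries lay above every sham library, and MI vehicle 4 lay inside the sham range. Of the 4 annotated Txnrd1 transcripts, NM_015762.2 carried an estimated 69.6% ± 10.2 of the gene's FPKM in sham and 71.8% ± 6.89 in MI vehicle. NM_001042513.1 carried 29.6% ± 9.65 and 27.2% ± 7.30. Both shares differed between the groups by less than their SD.

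Gclm (gene ID 14630, chromosome 3, 122245487 to 122267215) and Gclc (gene ID 14629, chromosome 9, 77754535 to 77794489) encode the modifier and catalytic subunits of glutamate-cysteine ligase, which carries out the rate-limiting step of glutathione synthesis. Gclm ranged from 10.3 to 15.2 FPKM (median 13.4) in sham and from 13.8 to 20.01 FPKM (median 17.5) in MI vehicle, with a mean of 17.3 ± 2.13 FPKM (log2 0.38, SE 0.11, adjusted p = 0.00901 by limma). Gclc ranged from 5.81 to 7.71 FPKM (median 6.75) in sham and from 6.66 to 12.4 FPKM (median 8.82) in MI vehicle, with a mean of 9.14 ± 2.02 FPKM (log2 0.37, SE 0.12, adjusted p = 0.0191 by limma). Again all MI vehicle libraries but MI vehicle 4 exceeded every sham value. With quantile normalization limma's adjusted p was 0.0548 for Gclm and 0.135 for Gclc, and with median-ratio scaling it was 0.0683 for Gclc, so neither call held under every scaling. Gclc values rest on 3 annotated transcripts, of which the predicted transcript XM_006510812.1 carried an estimated 75.3% ± 10.8 of the gene's FPKM in sham.

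Osgin1 (gene ID 71839, chromosome 8, 119425882 to 119446257), named as an oxidative stress-induced growth inhibitor, had the lowest level of the 10 genes. It ranged from 1.95 to 4.35 FPKM (median 3.14) in sham and from 3.66 to 5.26 FPKM (median 4.92) in MI vehicle, with 4 of 6 libraries above all sham libraries and a mean of 4.62 ± 0.758 FPKM (log2 0.45, SE 0.16, adjusted p = 0.0237 by limma). The call ended with median-ratio scaling (adjusted p = 0.0661), with quantile normalization (0.102) and without sham 5 (0.0538) or sham 6 (0.0546).

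Nqo1 (gene ID 18104, chromosome 8, 107388225 to 107403205) encodes a quinone reductase that is widely used as a readout of NRF2, and it moved opposite to Txnrd1 and Srxn1. It ranged from 32.5 to 47.1 FPKM (median 37.5) in sham and from 12.4 to 44.5 FPKM (median 26.6) in MI vehicle. Within MI vehicle the libraries were far apart: 2 and 6 stood at 12.8 and 12.4 FPKM, 1 at 21.8 and 4 at 31.4, and 3 and 5 at 34.3 and 44.5, inside the sham range. The mean fell by 31.6%, to 26.2 ± 12.8 FPKM (log2 -0.67, SE 0.27, adjusted p = 0.0456 by limma). This call was lost, with adjusted p from 0.0533 to 0.102, when any 1 sham library or MI vehicle 1, 2 or 6 was left out. It was also lost with no filter (0.0718) and with 1 fit over all 18 libraries (0.0780).

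Sod2 (gene ID 20656, chromosome 17, 13007839 to 13018119) was the other gene that fell. It ranged from 169 to 186 FPKM (median 179.7) in sham and from 79.6 to 165 FPKM (median 103) in MI vehicle. All 6 MI vehicle libraries lay below all sham libraries, as for 5.74% of all genes. The mean fell by 39.3%, to 108 ± 31.5 FPKM (log2 -0.76, SE 0.15, adjusted p = 0.00097 by limma). Sod2, Hmox1, Txnrd1, Srxn1 and Mt2 kept their calls in this comparison under all 18 alternatives run.

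**Figure D2:**
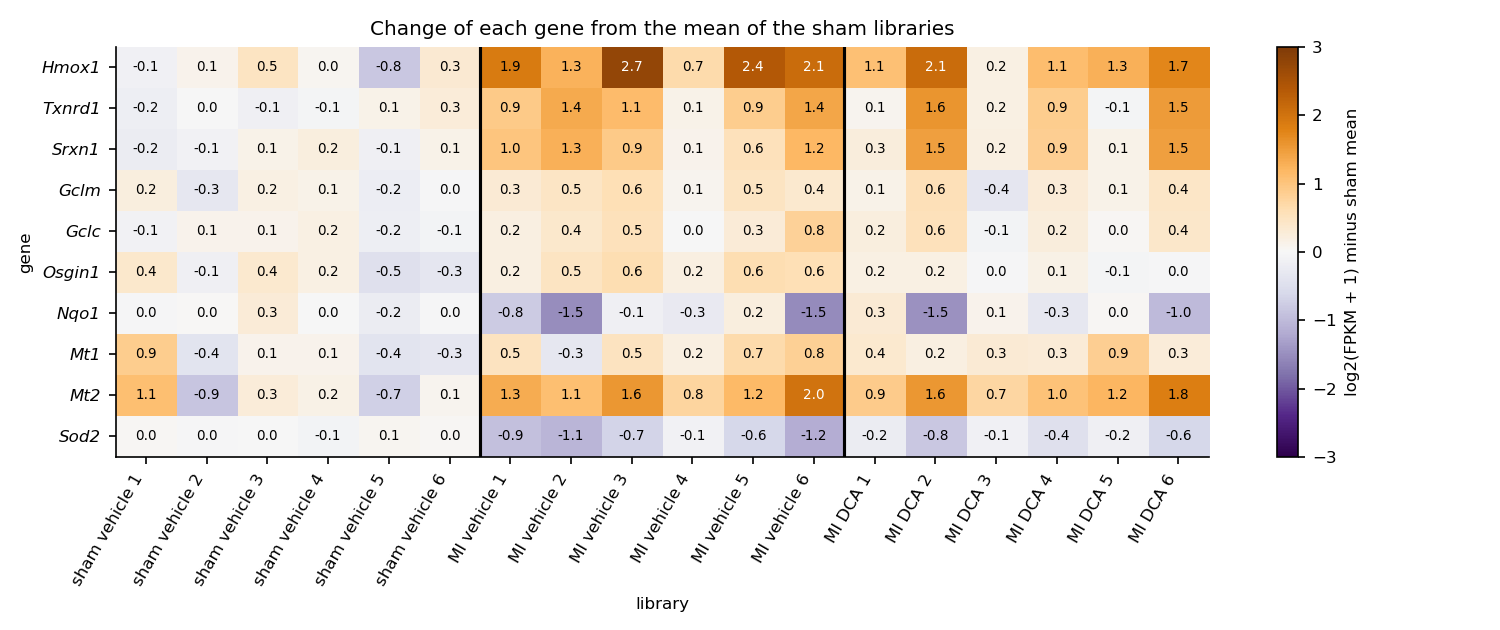
Change of each gene (rows) in each library (columns) from the mean of the 6 sham libraries, as log2(FPKM + 1), with the value printed in each cell; orange is above and purple below the sham mean. MI vehicle 4 and MI DCA 1, 3 and 5 are pale for most genes, and Nqo1 is darkest in MI vehicle 2 and 6 and MI DCA 2.

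The order of the infarcted libraries by Nqo1 and Sod2 was close to their order by cardiomyocyte markers, an observation made after the values were seen. The 5 infarcted libraries with the lowest marker sums, MI vehicle 1, 2 and 6 and MI DCA 2 and 6 (16889 to 21183 FPKM), were also the 5 lowest of 12 for Nqo1, and 4 of them were among the 5 lowest for Sod2. The same 5 libraries were the 5 highest for Srxn1, and 4 of them were among the 5 highest for Txnrd1, Gclc and Mt2. For Hmox1, Gclm and Osgin1 the number was 3 and for Mt1 it was 2. The highest library for Hmox1, MI vehicle 3, was not one of them. The same 5 libraries also lay farthest from the sham mean over 12229 genes, at 0.71 to 0.86, followed by MI vehicle 3 at 0.63. They also had the 5 highest sums of smooth muscle and pericyte markers. Des made up most of that sum, with medians of 1088 FPKM in sham and 2662 in MI vehicle beside sum medians of 1465 and 3095. Rgs5 of the same list had medians of 213 and 97.9 FPKM, so the sum does not stand for the list. Of the 8 genes of this list 4 were called higher and 1 lower in MI vehicle against sham. Of the 10 cardiomyocyte markers, 8 were called lower and 0 higher in MI vehicle, and the 2 not called were Tnnt2 and Actn2. All 10 infiltrating monocyte and macrophage markers and the 7 neutrophil markers that passed the filter were called higher. Over all genes tested 38.3% were called higher and 20.1% lower. The part of these markers in the changes of Nqo1, Sod2 and the genes that rose was not tested.

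**Figure D3:**
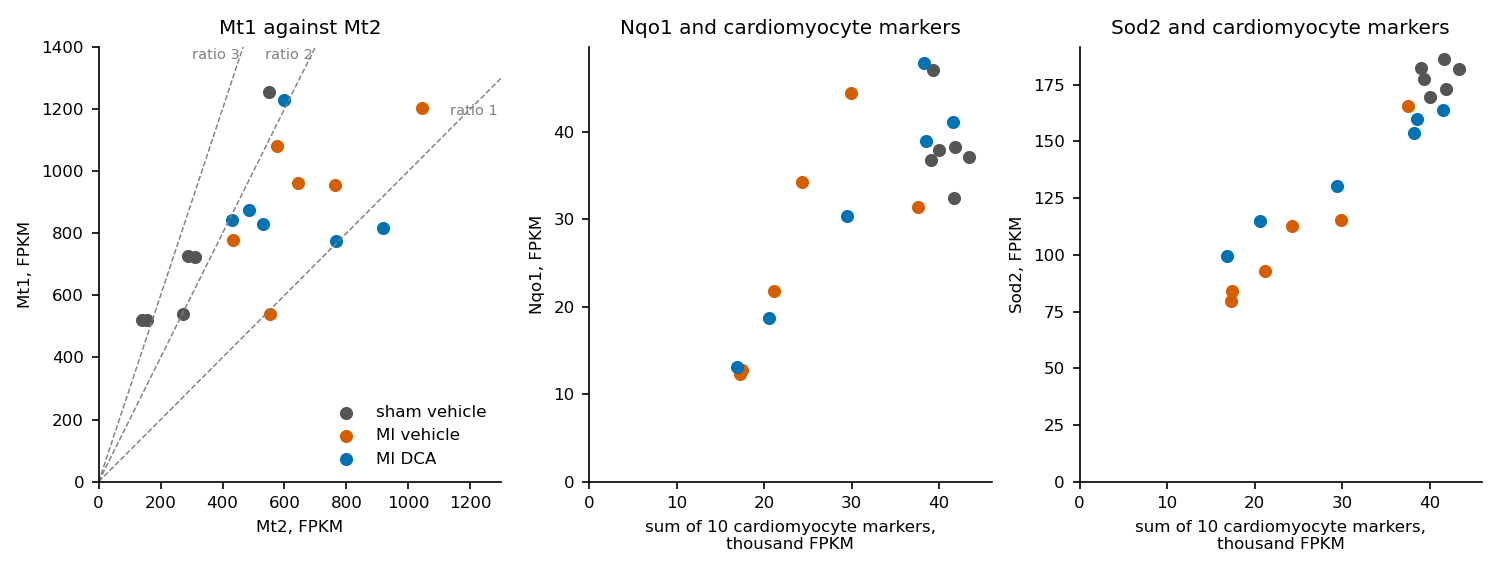
Left, Mt1 against Mt2 FPKM in 18 libraries, with dashed lines where their ratio is 1, 2 and 3; middle and right, Nqo1 and Sod2 FPKM against the summed FPKM of 10 cardiomyocyte markers, on an axis in kilo-FPKM. Sham libraries (grey) have ratios from 1.99 to 3.69 in the left panel, and the 5 libraries with the lowest marker sums are the 5 lowest infarcted libraries for Nqo1.

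Mt2 (gene ID 17750, chromosome 8, 94172618 to 94173567) and Mt1 (gene ID 17748, chromosome 8, 94178883 to 94180327) are neighbours, with 5315 bases between the end of Mt2 and the start of Mt1. Mt2 ranged from 141 to 551 FPKM (median 279.6) in sham and from 435 to 1043 FPKM (median 610.2) in MI vehicle, with 5 of 6 MI vehicle libraries above every sham library. Its mean rose to 669 ± 213 FPKM, 2.34 times that of sham (log2 1.32, SE 0.30, adjusted p = 0.00245 by limma). Mt1 ranged from 522 to 1255 FPKM (median 632) in sham and from 541 to 1204 FPKM (median 958) in MI vehicle, and no MI vehicle library exceeded the highest sham library. Its mean was 920.1 ± 234 FPKM and the difference was not called (log2 0.39, SE 0.24, 95% interval -0.11 to 0.90, adjusted p = 0.163 by limma). Sham 1 stood apart for Mt1, with 1255 FPKM where the next sham library had 728. It was also the highest sham library for Mt2, with 551 FPKM where the next had 310. Without sham 1, Mt1 was called higher (log2 0.57, adjusted p = 0.0247 by limma). Sham 1 also had the highest erythroid marker sum, 2099 FPKM beside a sham median of 563, and the part of this in its Mt1 level was not tested.

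The balance between the pair differed between sham and infarcted libraries. The ratio of Mt1 to Mt2 was 2.69 ± 0.669 in sham (1.99 to 3.69), 1.42 ± 0.36 in MI vehicle (0.979 to 1.88) and 1.54 ± 0.49 in MI DCA (0.889 to 2.05). The log2 ratio was lower by 0.92 in MI vehicle than in sham, with no overlap (two-sided exact permutation test over 924 regroupings, p = 0.00216, the smallest it can give; Benjamini-Hochberg adjusted 0.00649 over 3 comparisons). It was lower by 0.84 in MI DCA than in sham (exact permutation p = 0.00433, adjusted 0.00649) and differed by 0.09 between MI DCA and MI vehicle (exact permutation p = 0.745, adjusted 0.745). This test was chosen after the values were seen. With each library left out in turn, exact p ran from 0.00216 to 0.00433 for MI vehicle against sham and from 0.00216 to 0.0108 for MI DCA against sham. Mt1 and Mt2 are similar in sequence and short, so the estimate of how reads divide between them carries an error that the files do not give. The NM_013602.3 transcript carried an estimated 98.7% ± 0.546 of Mt1 in sham.

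DCA left none of the 10 genes past the threshold relative to MI vehicle. None of the 12004 genes tested was called (0.0%), with a smallest adjusted p of 0.301; at an unadjusted p under 0.05 there were 1299 genes, 192 higher and 1107 lower, and 1 of the 10 genes, Osgin1. The log2 differences were negative for 8 genes and positive for Nqo1 and Sod2, with a median of -0.12 beside -0.06 over all genes. MI vehicle enters both this comparison and the one above with opposite sign, so opposite signs between them are no independent observation. The intervals were wide, and the tests do not show that the groups were alike.

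Osgin1 was the 1 member of the 10 that separated the infarcted groups. It ranged from 2.91 to 3.61 FPKM (median 3.26) in MI DCA against 3.66 to 5.26 FPKM in MI vehicle, so that all 6 MI DCA libraries lay below all MI vehicle libraries. Over all genes tested 0.541% had no overlap, 0.467% lower and 0.075% higher. The smallest gap, between MI DCA 2 and MI vehicle 4, was between 3.61 and 3.66 FPKM. Means were 3.26 ± 0.341 and 4.62 ± 0.758 FPKM (log2 -0.39, 95% interval -0.61 to -0.18, unadjusted p = 0.00182 and adjusted p = 0.407 by limma). Over the alternatives the adjusted p ran from 0.0975 to 0.774 and the log2 difference from -0.48 to -0.29. The same MI DCA values lay wholly inside the sham range of 1.95 to 4.35 FPKM. The RefSeq transcript NM_027950.1 made up most of the gene, at an estimated 2.84 ± 0.716 FPKM in MI DCA and 4.21 ± 0.462 in MI vehicle.

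Sod2 ranged from 99.3 to 164 FPKM (median 142) in MI DCA, with a mean of 137 ± 26.4 FPKM against 108 ± 31.5 in MI vehicle (log2 0.36, 95% interval -0.04 to 0.76, adjusted p = 0.483 by limma). Hmox1 ranged from 27.9 to 108 FPKM (median 58.3), with a mean of 65.1 ± 27.95 FPKM against 101 ± 47.8 (log2 -0.59, 95% interval -1.39 to 0.21, adjusted p = 0.545 by limma). Both genes overlapped between the infarcted groups. Nqo1 ranged from 13.1 to 47.9 FPKM in MI DCA (log2 0.29, 95% interval -0.52 to 1.10), with MI DCA 2 and 6 at 13.1 and 18.7 FPKM and MI DCA 1 at 47.9, above every sham library.

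Txnrd1 and Srxn1 were far apart among the MI DCA libraries. MI DCA 2 and 6 had 55.5 and 52.9 FPKM of Txnrd1 and 34.1 and 34.2 FPKM of Srxn1, above every MI vehicle library. MI DCA 1, 3 and 5 had 17.1 to 20.4 FPKM of Txnrd1 and 12.9 to 14.3 FPKM of Srxn1, inside or just above the sham ranges, and MI DCA 4 lay between, at 33.9 and 22.3 FPKM. The log2 differences from MI vehicle were -0.28 (95% interval -0.97 to 0.42) and -0.11 (-0.72 to 0.50). For the metallothioneins they were -0.10 for Mt2 (-0.59 to 0.40) and -0.01 for Mt1 (-0.42 to 0.40), and for the ligase subunits -0.18 for Gclm (-0.49 to 0.12) and -0.14 for Gclc (-0.45 to 0.17).

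**Figure D4:**
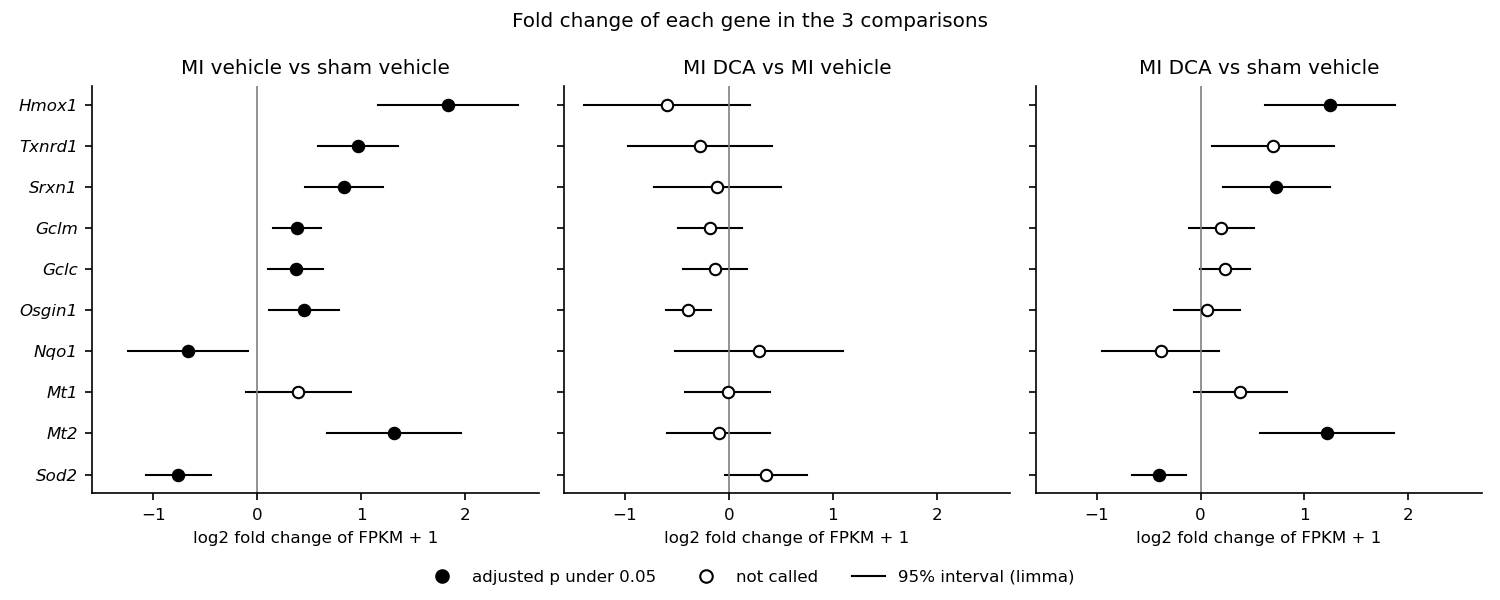
Log2 fold change of FPKM + 1 for each gene (rows) in the 3 comparisons, with 95% intervals from limma; filled points have an adjusted p under 0.05. In MI vehicle against sham 9 of 10 points are filled, in MI DCA against MI vehicle 0, and in MI DCA against sham 4.

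Compared with sham, MI DCA hearts had higher Hmox1, Mt2 and Srxn1 and lower Sod2, and the other 6 genes were not called. Of the 11842 genes tested here 23.8% were called, 15.5% higher and 8.33% lower, and median-ratio scaling moved that split from 1830 and 987 genes to 1346 and 1393. The median log2 fold change was 0.31 over the 10 genes and 0.05 over all genes. Hmox1 was 1.24 higher on the log2 scale (SE 0.29, adjusted p = 0.0175 by limma), with 5 of 6 libraries above all sham libraries, and MI DCA 3 inside the sham range. Mt2 was 1.22 higher (SE 0.30, adjusted p = 0.0197 by limma), with 3 of 6 above all sham libraries and a range of 432 to 919.7 FPKM. Both calls held under all 18 alternatives run.

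The other calls against sham were less steady. Srxn1 was 0.73 higher in MI DCA on the log2 scale (SE 0.24, adjusted p = 0.043 by limma). It lost the call with no filter, under both scalings and without any 1 sham library or MI DCA 2, 4 or 6, with adjusted p from 0.0531 to 0.0882. Sod2 was lower by 0.40 on the log2 scale (SE 0.12, adjusted p = 0.0328 by limma), and all 6 MI DCA libraries lay below all sham libraries, as for 2.84% of all genes tested; 6.31% had no overlap in the other direction, 9.15% in all. Its call was lost without any 1 sham library or MI DCA 2, 4 or 6, with adjusted p from 0.0513 to 0.0719, and with 1 fit over all 18 libraries (0.0643). Txnrd1 (log2 0.70, adjusted p = 0.074 by limma) was called without MI DCA 1, 3 or 5 (0.0331 to 0.0429), Gclc (0.23, 0.126) without MI DCA 3 (0.0428) and Mt1 (0.38, 0.172) without sham 1 (0.0297). Nqo1 (-0.38, 0.274), Gclm (0.20, 0.308) and Osgin1 (0.06, 0.769) were not called.

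The infarcted libraries differed in how many of the genes that rose lay above the sham range, a count that uses genes chosen by this rise. Of the 7 genes that rose in MI vehicle, MI vehicle 4 had 1 above all sham libraries and MI vehicle 1, 2, 3, 5 and 6 had 6 or 7. MI DCA 3 had 0, MI DCA 5 had 2, MI DCA 1 had 3, MI DCA 4 had 5, and MI DCA 2 and 6 had 6 each. The order differed between genes: MI DCA 5 lay 1.29 above the sham mean for Hmox1 and 1.21 for Mt2 on the log2 scale, more than MI DCA 4 at 1.11 and 1.04, but was at -0.07 for Txnrd1, where MI DCA 4 was at 0.88. MI vehicle 4 held the lowest value of its group for 7 of the 10 genes and the highest Sod2 of its group, 165 FPKM. MI DCA 2 held the highest value of its group for 5 genes and the lowest for Nqo1, Mt1 and Sod2. Left out alone, MI vehicle 4 raised the log2 fold change of Hmox1 against sham from 1.84 to 2.07 and that of Txnrd1 from 0.97 to 1.14.

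By the rule set for likeness (the smallest root mean square difference in log2 change from the sham mean, over 18 libraries and 12229 genes), the genes closest to Txnrd1 were Ddx21 (0.12), Pvr (0.15) and Utp18 (0.15). Ddx21 had a mean of 11.6 FPKM in sham, 26.4 in MI vehicle and 21.2 in MI DCA. Those closest to Hmox1 were Il4ra (0.36), Junb (0.38) and Plek (0.39), and those closest to Mt2 were Tmsb10 (0.36), Ecscr (0.37) and Arpc1b (0.38). Il4ra had a mean of 10.6, 41.3 and 30.6 FPKM and Tmsb10 a mean of 175, 454 and 413 FPKM in sham, MI vehicle and MI DCA. The same measure against no change at all was 0.83 for Txnrd1, 1.41 for Hmox1 and 1.15 for Mt2.

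The wider pathway was followed in 8 lists with 97 genes, of which 90 passed the filter. In MI vehicle against sham 34 were called higher (37.8%, beside 38.3% of all genes tested) and 31 lower (34.4%, beside 20.1%), and the median log2 fold change was 0.00, beside 0.12 over all genes tested. In MI DCA against MI vehicle 0 were called, and in MI DCA against sham 20 were called higher (22.2%, beside 15.5% of all genes) and 9 lower (10.0%, beside 8.33%). In MI DCA against MI vehicle Tkt, which encodes transketolase, and Akr1a1, an aldehyde reductase, had the smallest unadjusted p by limma, 0.00788 and 0.00965, with an adjusted p of 0.407 for both. Their log2 differences were -0.44 and -0.21.

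Among 9 regulators of NRF2 and its partners 4 rose, 1 fell and 4 were not called in MI vehicle; the 5 called of 9 stand beside 58.4% called of all genes. The small MAF proteins Maff and Mafk rose most: Maff went from 4.68 ± 0.507 to 13.5 ± 4.45 FPKM (log2 1.30, adjusted p = 0.000141 by limma) and Mafk from 15.4 ± 1.41 to 31.7 ± 7.78 FPKM (log2 0.95, adjusted p = 0.000322 by limma). Nfe2l1, which encodes a relative of NRF2 that controls proteasome genes, fell from 132 ± 9.22 to 103 ± 12.1 FPKM (log2 -0.36, adjusted p = 0.00419 by limma).

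Genes of glutathione synthesis and use went both ways, with 8 of 28 called higher (28.6%, beside 38.3% of all genes), 12 lower (42.9%, beside 20.1%) and 8 not called. The glutathione S-transferases Gsta3 and Gstt1 fell, from 8.59 ± 4.91 to 2.37 ± 1.54 FPKM and from 17.5 ± 4.34 to 7.46 ± 3.32 FPKM, and glutathione peroxidase Gpx1 rose from 79.5 ± 12.9 to 157 ± 33.9 FPKM (adjusted p = 0.00507, 0.00113 and 0.000228 by limma). Slc7a11, the cystine transporter and a known NRF2 target, was below the filter, at 0.0167 ± 0.0121 FPKM in sham and 0.185 ± 0.158 in MI vehicle (two-sided exact permutation p = 0.00216, the smallest possible; adjusted 0.013 over the 6 listed genes below the filter). These Slc7a11 values lie near the floor of data rounded to 2 decimals, and every MI vehicle library was estimated to be deeper than every sham library. Of 13 thioredoxins, peroxiredoxins and sestrins 3 rose (23.1%, beside 38.3% of all genes), 5 fell (38.5%, beside 20.1%) and 5 were not called. Cytosolic thioredoxin Txn1 rose from 73.0 ± 7.46 to 122 ± 21.9 FPKM, and mitochondrial peroxiredoxin Prdx3 fell from 235 ± 6.92 to 156 ± 33.8 FPKM. Sesn1, a sestrin, fell from 56.2 ± 5.69 to 24.9 ± 13.7 FPKM. By limma the adjusted p was 0.000575 for Txn1, 0.00101 for Prdx3 and 0.0012 for Sesn1.

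Of 4 other genes of superoxide and peroxide removal (Sod1, Sod3, Ccs and Cat) 2 fell and 0 rose, beside 20.1% and 38.3% of all genes. Catalase (Cat) fell from 138 ± 8.17 to 97.2 ± 24.3 FPKM (log2 -0.54, adjusted p = 0.00537 by limma) and cytosolic Sod1 from 440.4 ± 36.7 to 336 ± 57.1 FPKM (log2 -0.40, adjusted p = 0.00788 by limma). All 8 genes of NADPH supply were called, 4 in each direction, beside 38.3% of all genes called higher and 20.1% lower. Pgd of the pentose phosphate pathway rose from 23.2 ± 2.53 to 49.3 ± 12.3 FPKM, whereas the mitochondrial enzymes Idh2 and Nnt fell, from 1059 ± 113 to 509.5 ± 174 FPKM and from 321 ± 46.8 to 161 ± 47.02 FPKM (adjusted p = 0.000182, 0.000637 and 0.000521 by limma).

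Of 16 genes of heme, quinone and carbonyl detoxification 5 rose (31.2%, beside 38.3% of all genes), 7 fell (43.8%, beside 20.1%) and 4 were not called. The aldose reductase relative Akr1b8 rose from 4.97 ± 0.872 to 18.1 ± 7.75 FPKM (log2 1.57, adjusted p = 0.000337 by limma), and retinaldehyde dehydrogenase Aldh1a1 and epoxide hydrolase Ephx1 fell by 1.44 and 0.96 on the log2 scale (adjusted p = 0.000459 and 0.000742 by limma). In the zinc and metallothionein list 4 of 5 genes past the filter rose and 0 fell, beside 38.3% and 20.1% of all genes. The zinc importers Slc39a14 and Slc39a1 rose by 0.87 and 0.69 on the log2 scale, and Mtf1, the metal-responsive factor, rose from 2.64 ± 0.387 to 3.33 ± 0.405 FPKM (log2 0.25, adjusted p = 0.0291 by limma). Another metallothionein, Mt3, was below the filter, at 1.23 ± 0.362 FPKM in sham and 0.705 ± 0.388 in MI vehicle (exact permutation p = 0.0368, adjusted 0.0736 over the same 6 genes). The other 4 genes below the filter had adjusted exact p of 0.0736 (Sesn3) and 0.991 (Mgst2, Slc39a8 and Nox4). Of 7 genes of superoxide-producing oxidases 6 rose and 0 fell, beside the same shares of all genes, among them Ncf4 and Rac2 of the phagocyte oxidase (log2 1.56 and 1.398). Phagocyte markers rose in the same comparison, and their part in these changes was not tested.

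**Figure D5:**
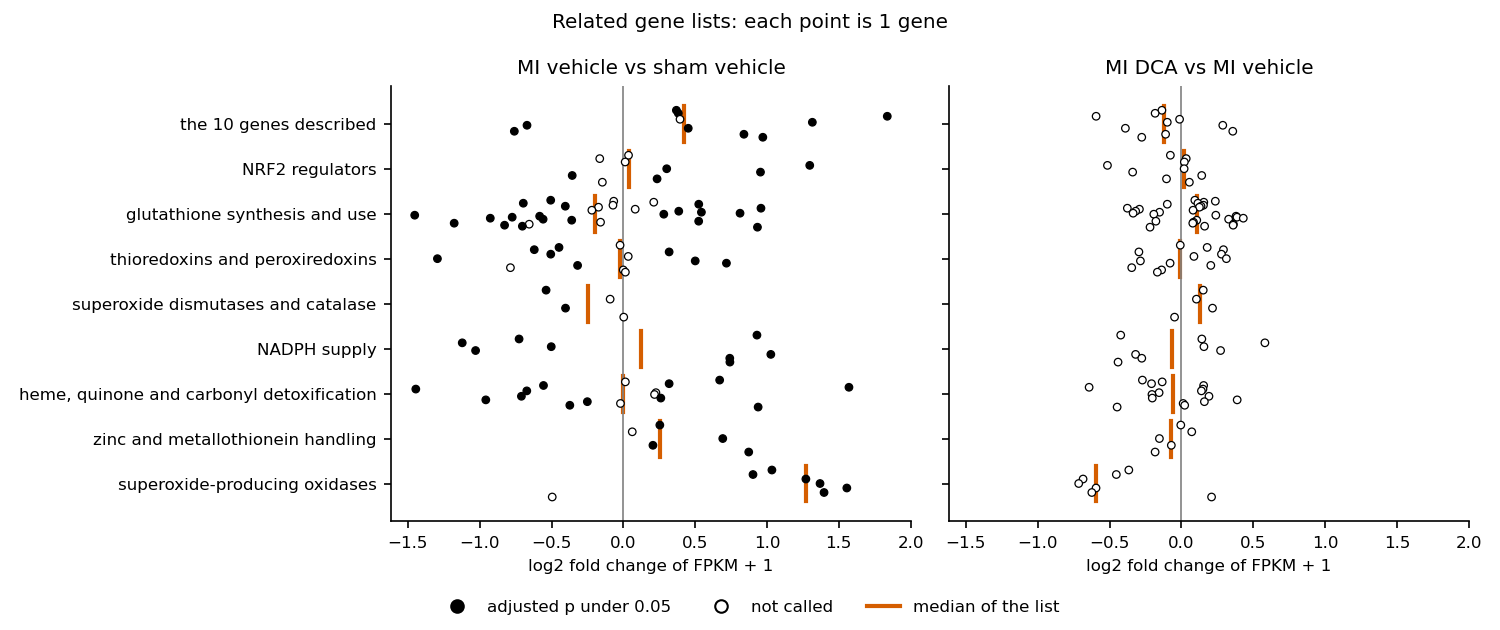
Log2 fold change of FPKM + 1 of each gene past the filter (points) in the 10 genes described and in 8 related lists, with the list median as a bar; filled points have an adjusted p under 0.05. In MI vehicle against sham 7 of the 8 related lists hold genes on both sides of 0, all 5 genes of the zinc and metallothionein list lie above it, and the oxidases have a median of 1.27; in MI DCA against MI vehicle 0 points are filled.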

How the data were processed

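Gene and transcript values of 18 libraries were used as FPKM that the authors had scaled by transcript length and mapped reads, rounded to 2 decimals and deposited. The unit was inferred from the values, since the sum of value times transcript length varied less between libraries (coefficient of variation 0.713%) than the sum of values (3.09%). Per the labels' protocols, libraries were made by RNA Access capture from total RNA, and a BGISEQ-500 gave 50-base single-end reads. Per the submitters' processing notes, GRCm38.p6 and 3 tools were named: RSEM 1.2.12, Bowtie2 2.2.5 and DESeq2 1.4.5, with no role named for any; the release of the annotation is not stated. FPKM carry no counts, so no counting interval is given, and genes with similar copies or several transcripts rest on estimates.

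Libraries were grouped by their tissue and treatment labels. Each comparison was fitted on its own 2 groups of 6 with limma 3.58.1 (R 4.3.3, intensity trend) on log2(FPKM + 1), a scale that understates changes of low genes, and adjusted by Benjamini-Hochberg over all genes past the filter. Replicate numbers were not used as pairs. The fits were tested on simulated data, and Python 3.11.15 did the rest. Alternatives were a pseudocount of 0.1, no filter, median-ratio and quantile scaling, 1 fit over 18 libraries, a replicate block, and each library left out; for the Mt1 to Mt2 ratio the last was added after the data were seen. The 4 libraries near sham were left out only singly, because choosing them jointly would select by outcome.

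The 10 genes and all lists were chosen with earlier results of these data known. Named genes are the 10, the 3 called genes of largest change in each related list, the 2 of smallest p in MI DCA against MI vehicle, and the 3 most like each of the 3 most changed genes; 1 gene that this rule names is not reported here. The genes below the filter and the cell markers were named after their values were seen. Of the marker lists for resident macrophages, fibroblasts, endothelium, smooth muscle and epicardium, 7, 8, 8, 8 and 2 genes passed the filter. Of these, 2, 2, 1, 4 and 0 were called higher and 1, 3, 4, 1 and 0 lower in MI vehicle against sham. Of the 5 erythroid genes past the filter 0 were called. The shares of all genes tested were 38.3% higher and 20.1% lower. Coordinates are from RefSeq on GRCm38.p6.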

Additional observations from a re-analysis of the deposited data

Results flagged for a closer look

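In 30 sets of 6 values (10 genes in 3 groups), 2 had a library whose gap to the next exceeded Dixon's 95% critical value of 0.625; chance gives about 1 in 20. Both concern Mt1. In sham 1, Mt1 was 1255 FPKM and the next sham library had 728, a gap of 0.718 of the group's range. In MI DCA 5, Mt1 was 1229 FPKM and the next library had 876, a gap of 0.779 of the range. Mt2 in the same libraries was 551 and 599 FPKM, so the Mt1 to Mt2 ratio was 2.28 and 2.05.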

How the results depend on the processing

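Of 540 values of single genes under alternatives, 478 kept their direction and side of the threshold, 42 lost a call, 6 gained one and 14 changed sign. In MI vehicle against sham the 7 genes called higher became 5 with median-ratio scaling and 4 with quantile normalization. With 1 library left out they became 6 to 8. The 2 called lower became 1 with no filter and with 1 fit over 18 libraries, and 1 to 2 with 1 library left out (Nqo1 lost). The 3 genes called higher in MI DCA against sham became 2 with no filter and under both scalings (Srxn1 lost). With 1 library left out they became 2 to 5, 5 without MI DCA 3. The 1 called lower became 0 with 1 fit over 18 libraries and with the replicate block, and 0 to 1 with 1 library left out. In MI DCA against MI vehicle 0 were called under all 18 alternatives. The changes of sign were all in values that were not called. In MI DCA against MI vehicle, Srxn1 ran from -0.26 to 0.010 with 1 library left out (0.010 without MI DCA 5), Mt2 from -0.22 to 0.041 (0.041 without MI vehicle 6) and Mt1 from -0.16 to 0.074, and Mt1 was 0.069 with median-ratio scaling. In MI DCA against sham, Osgin1 was -0.0070 with quantile normalization and from -0.031 to 0.14 with 1 library left out. The Mt1 to Mt2 ratio differed between MI DCA and MI vehicle by -0.014 to 0.23 (log2) with 1 library left out. The causes were not tested.

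Replicate numbers did not pair the libraries: correlations of same-numbered deviations ran from -0.05 to 0.14 for MI vehicle and sham, from -0.44 to 0.69 for MI DCA and MI vehicle, and from -0.09 to 0.22 for MI DCA and sham, and 1 of 6 libraries correlated best with its own number in each. With the number as a replicate block, Osgin1 in MI vehicle against sham had an adjusted p of 0.0505 and Sod2 in MI DCA against sham 0.0507 by limma, and no other call of the 10 genes changed. Over all genes, calls in MI DCA against sham went from 1830 higher and 987 lower to 1124 and 572 with the replicate block, to 740 and 315 without sham 5 and to 2596 and 1489 without MI DCA 3, the extremes with 1 library left out. Without MI vehicle 5, 1 gene of all tested was called lower in MI DCA against MI vehicle. Low values such as those of Osgin1 and Gclc rest on few reads, and FPKM give no counting error for them.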
